A study of Mus musculus with 12 samples.

Results

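The cytosolic ribosomal protein genes are the genes for the protein subunits of the ribosome outside the mitochondrion. They were taken from the expression table by symbol, as Rpl or Rps followed by a subunit name, leaving out the S6 kinases, the Rps19 binding protein and symbols ending in -ps. The rule found 84 genes among 23284 symbols, 51 of the large subunit and 33 of the small subunit. Of these, 81 reached at least 1 FPKM (fragments per kilobase of transcript, scaled to library size) in at least 3 libraries and were tested. Rpl3l, Rpl10l and Rpl39l did not.

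The study made muscle stem cells from mouse pluripotent stem cells and measured total RNA in 12 libraries, 3 biological replicates in each of 4 groups. Teratoma libraries came from teratomas 3 weeks old, and transplant libraries from tibialis anterior muscle 1 month after it received cells from teratomas. For embryo libraries the source was the whole E14.5 embryo, for adult libraries the hindlimbs of male mice 8 weeks old. Every sample is labelled with the strain 129P2/OlaHsd and was sorted as CD31- CD45- a7-Integrin+ VCAM+, so all groups share the gate. The labels name no marker that separates transplanted cells from the host muscle's own cells, and whole embryos and hindlimbs hold many muscles. Biological replicates are stated for the series, but which animals or teratomas they came from is not, so the p-values measure the spread between these libraries.

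A ribosome holds 1 copy of nearly every one of these proteins, and their mRNAs are among the most abundant in growing cells. Many of the mRNAs begin with a run of pyrimidines, the terminal oligopyrimidine or TOP element, through which the kinase mTOR and the RNA-binding protein Larp1 control their translation. Quiescent muscle stem cells are known to hold less RNA and to make less protein than activated ones. Transcript levels alone do not give ribosome number.

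The start of the gene is where the TOP element lies. RefSeq start windows (build GRCm38.p6) were found for 63 of the 84 genes. Windows of 60 bases, 45 before the start base and 15 from it on, are shown 5′ to 3′ for 5 genes that were lower in transplant libraries and whose start base lies in such a run. Capitals mark the unbroken run of C and T over the start base. Rps26, Rps13 and Rpl6 were also lower in transplant libraries and have no run of at least 5 there, so the windows are examples only.
Rps6, chromosome 4:86857353-86857412, minus strand: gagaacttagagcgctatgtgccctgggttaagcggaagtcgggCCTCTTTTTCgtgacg
Rpl38, chromosome 11:114668535-114668594, plus strand: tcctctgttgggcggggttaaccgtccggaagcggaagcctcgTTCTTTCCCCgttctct
Rps15a, chromosome 7:118116133-118116192, minus strand: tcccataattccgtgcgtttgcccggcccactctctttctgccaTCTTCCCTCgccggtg
Rpl31, chromosome 1:39367806-39367865, plus strand: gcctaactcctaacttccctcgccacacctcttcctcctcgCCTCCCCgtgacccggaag
Rps24, chromosome 14:24490633-24490692, plus strand: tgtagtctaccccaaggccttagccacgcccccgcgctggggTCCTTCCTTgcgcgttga
The same windows are shown for 4 genes whose transcripts departed from the other ribosomal protein genes. None has a C or T run of at least 5 over the listed start base, so nothing is in capitals. RefSeq lists more than 1 start for Rpl22, shown at the downstream one, and for Rps24, shown at the upstream one.
Rpl41, chromosome 10:128549154-128549213, minus strand: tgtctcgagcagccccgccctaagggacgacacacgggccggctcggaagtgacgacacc
Rpl22, chromosome 4:152325681-152325740, plus strand: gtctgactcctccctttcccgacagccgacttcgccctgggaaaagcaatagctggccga
Rpl7l1, chromosome 17:46782642-46782701, minus strand: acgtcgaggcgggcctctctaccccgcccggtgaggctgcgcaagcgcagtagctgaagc
Rplp0, chromosome 5:115559422-115559481, plus strand: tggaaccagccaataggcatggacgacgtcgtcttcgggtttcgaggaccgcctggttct

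A C or T run of at least 5 bases over the start base was found in 20 of the 63 genes (31.7%), against 11.8% of the 27025 genes with a window and 11.4% of the 8959 among them that were tested for expression. Listed starts can lie some bases from the base that cells use, so a missing run says only that these letters are not at the listed base. In the wider window of 250 bases before to 50 after the start, on both strands, CCGGAAG was in 41.3% of the 63 genes, in 9.93% of all and in 19.3% of the tested genes. TCGCGA was in 22.2%, against 2.86% of all and 5.65% of tested genes, and AAGATGGC in 9.52%, against 3.19% and 5.1%. For the other motifs the direction depended on the background. CACGTG was in 9.52% of the 63 genes, 8.09% of all and 1076 of the 8959 tested genes, a larger share, and TATAAA in 11.1%, 15.7% and 9.12%. These are matches of letters, not sites.

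As a check of the sort, all 12 genes of a myogenic marker list, among them Pax7, Myf5, Myod1 and Itga7, had a mean of at least 1 FPKM in every group. Their summed level ran from 205 to 300 FPKM in embryo libraries, 588 to 608 in teratoma, 711 to 969 in transplant and 1225 to 1353 in adult. Single genes did not all follow this order. Pax7 was listed at 8.24, 9.02 and 10.06 FPKM in adult libraries and at 13.06 to 54.79 in the other groups. Myog was at 4.08, 4.03 and 1.97 FPKM in adult and at 10.1 to 46.62 elsewhere. Myod1 went with the sum, at 343 to 442 FPKM in adult and 11.2 to 62.2 elsewhere. As deposited, limma called 9 of the 12 genes higher and 2 lower in adult against embryo, when 15.8% of all tested genes were higher and 36.9% lower. Itga7 and Vcam1 on this list are themselves part of the gate. Pecam1, the gene of CD31, was at 5.49 to 9.62 FPKM in teratoma libraries and 8.31 in embryo replicate 2. It was at 0.638 to 4.80 FPKM in the remaining libraries. Ptprc, the gene of CD45, reached 1.44 FPKM at most. Small, ribosomal and mitochondrial RNA took 42.57% to 98.24% of the FPKM sum of a library, which is why sums below leave it out. Adult replicate 2 had the highest share of such RNA and embryo replicate 2 the lowest. Counts that moved by more than 1.5 times without either are given with both values. Embryo replicate 3, at 97.83%, was close to adult replicate 2. Without it, 18 genes were called lower in adult against embryo, when 27 were with all libraries. Read depth is unknown. In bulk RNA of sorted cells, fewer cells of a type and less RNA per cell cannot be told apart.

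Without small, ribosomal and mitochondrial RNA, the mean share of FPKM held by ribosomal protein genes was smallest in transplant and largest in embryo libraries. The 84 genes together made 11.79%, 12.06% and 13.03% of the FPKM left after small, ribosomal and mitochondrial RNA in the 3 transplant libraries. They made 14.73%, 14.64% and 15.18% in teratoma libraries, and 16.48%, 16.87% and 15.73% in embryo libraries. Adult libraries gave 13.21%, 16.17% and 13.88%. Every transplant library lay below every library of the other 3 groups, and the adult libraries overlapped with teratoma and embryo, replicate 2 being the highest adult library. The mean share was 12.29% ± 0.652 (SD, n = 3) in transplant, 14.85% ± 0.289 in teratoma, 16.36% ± 0.579 in embryo and 14.42% ± 1.55 in adult. An exact two-sided permutation test gave p = 0.1 for transplant against each other group and for teratoma against embryo, the smallest that 3 against 3 allows, and 0.2 for adult against embryo and 0.8 for teratoma against adult.

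The summed FPKM of the 84 genes was 26192.1 ± 1321.25 in transplant, 30759.8 ± 3717.95 in adult, 36686.5 ± 1340.7 in teratoma and 39477.8 ± 1842.09 in embryo libraries (SD, n = 3 each). The level of the genes was also set against that of all genes. For each library, the median ratio of these genes to their geometric mean over the 12 libraries was divided by the same median over all genes, both for genes above 0 in every library. The quotient was 0.789, 0.809 and 0.891 in transplant, 0.944, 0.974 and 0.992 in teratoma, 1.05, 1.06 and 0.996 in embryo, and 1.106, 1.408 and 1.118 in adult libraries. Transplant was again lowest, but here adult libraries were highest, so the place of adult libraries depends on what the genes are compared with.

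**Figure D1:**
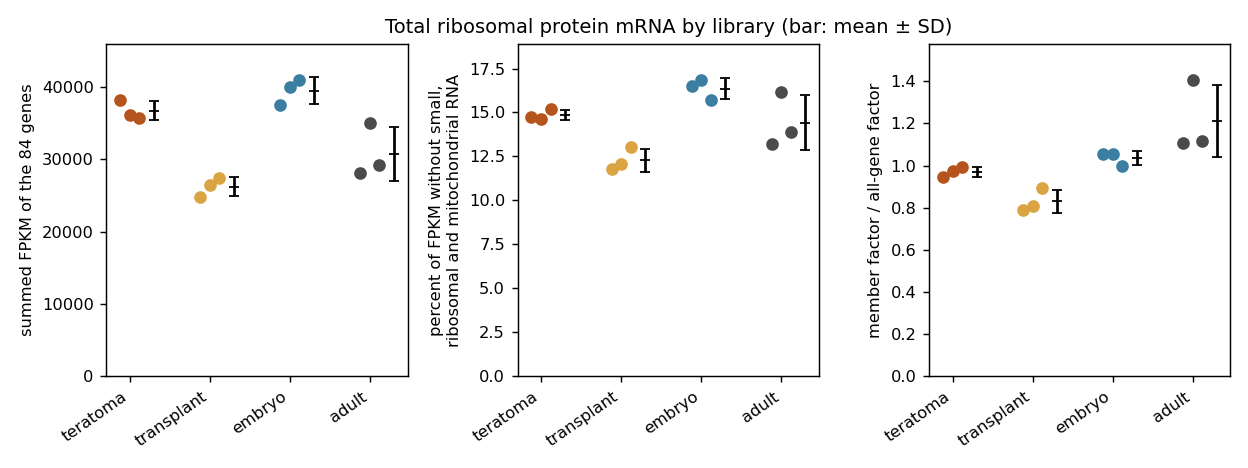
Points are libraries, and the bar beside them is mean ± SD of 3. The panels give the summed FPKM of the 84 genes, their percent of the FPKM without small, ribosomal and mitochondrial RNA, and their level relative to all genes (no unit). Transplant libraries are lowest in all 3 panels, and the highest adult point in each panel is replicate 2.

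Levels ranged widely between the genes. Rplp1 and Rplp2, the acidic proteins of the stalk that recruits elongation factors, were highest, with means over the 12 libraries of 2269 and 1872 FPKM, and Rps26, a protein at the mRNA exit channel, was the next at 878 FPKM. Apart from the 3 genes that were not tested, the lowest were Rpl30, Rps4y2 and Rps27l at 15.99, 16.41 and 26.09 FPKM, and Rpl30 has a near-identical copy described below. FPKM is per length, so these levels can be set side by side, but short transcripts are estimated poorly. The order of levels was alike in the 4 groups, with Spearman's rho across the 77 genes above 0 in all libraries between 0.931 (transplant and adult) and 0.983 (teratoma and transplant), a description over genes that share their libraries. The genes also moved together across libraries. The Pearson correlation of a gene with the mean of the others over 12 libraries had a median of 0.82 and was over 0.9 for 19 genes, against a median of 0.285 for 6535 other genes. It was under 0.5 for 10, namely Rpl26, Rplp1, Rpl30, Rps4y2, Rplp0, Rpl7l1, Rpl37, Rpl29, Rpl37a and Rpl34.

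**Figure D2:**
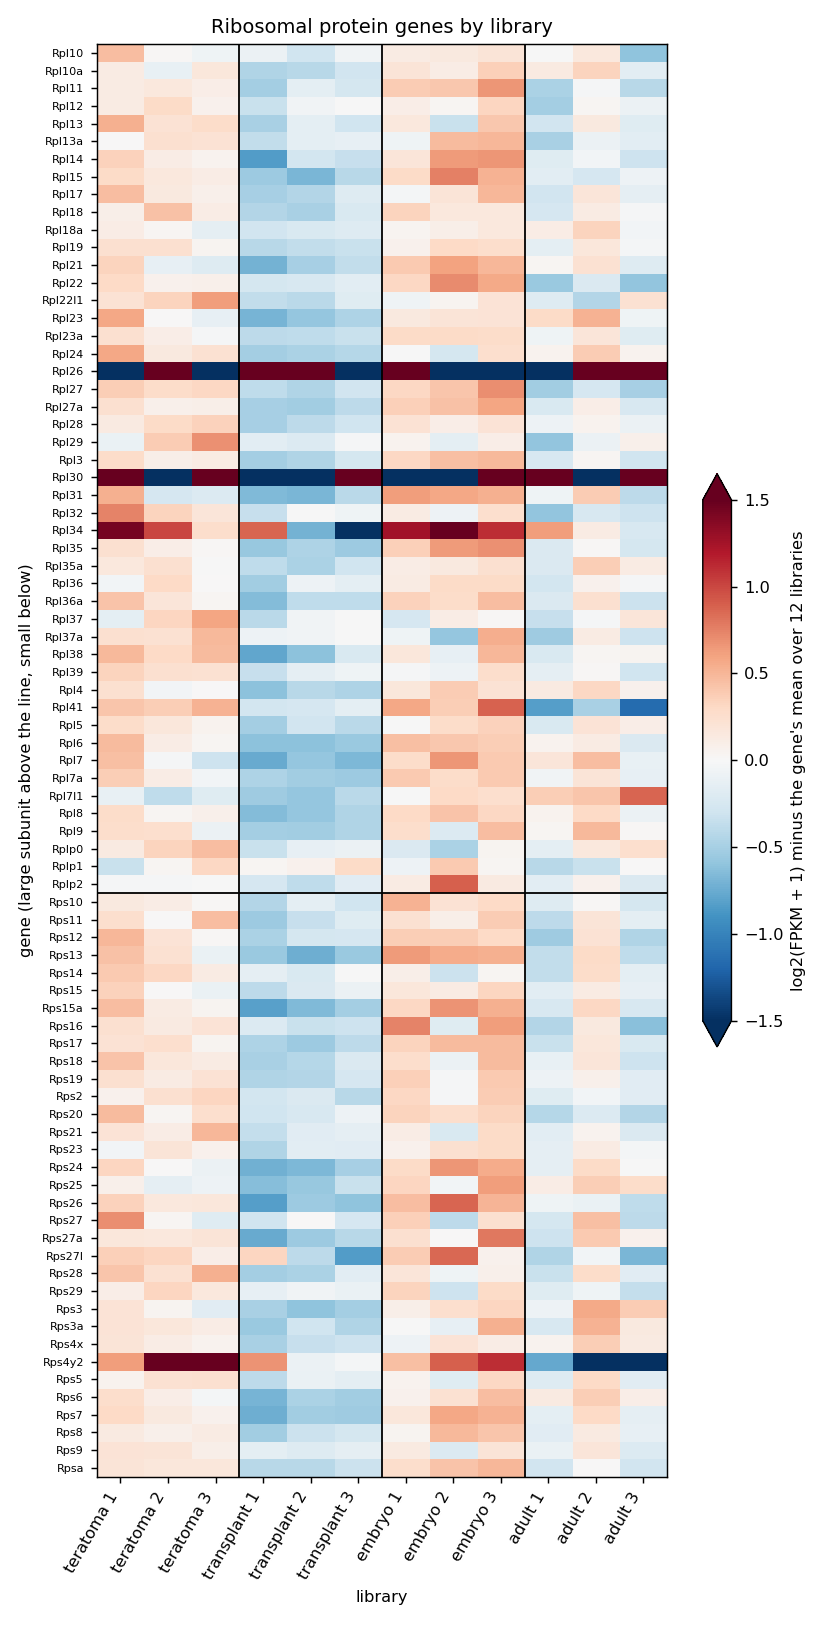
Each row is one of the 81 tested genes and each column a library. Colour gives log2(FPKM + 1) minus the gene's mean over the 12 libraries, and stronger values take the end colours. Transplant columns are blue in nearly all rows, while Rpl26, Rpl30, Rpl34 and Rps4y2 stand out with values past the scale.

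As deposited, transplant libraries had lower levels of most ribosomal protein genes than teratoma libraries, and the number of calls depended on the scaling. With values as deposited, limma called 45 of 81 genes lower and 0 higher in transplant against teratoma, when 18.5% of the 12699 tested genes were called lower and 4.18% higher (Benjamini-Hochberg adjusted p under 0.05). At an unadjusted p under 0.05 the counts were 59 lower and 0 higher. Groups did not overlap for 70 genes that were lower in transplant, against 32.2% of all tested genes, and for 0 that were higher (9.37% of all). Of the large subunit 28 of 48 genes fell, and of the small subunit 17 of 33. The median change of the 81 genes was -0.56 on the log2(FPKM + 1) scale, a level of 0.676 relative to teratoma, against -0.28 over all tested genes.

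Rpl38, a large subunit protein known for its part in translating Hox mRNAs, had the largest fall among called genes whose groups were apart. It was listed at 453, 399 and 452 FPKM in teratoma and at 189, 211 and 276 in transplant libraries. All transplant values were below all teratoma values, and the log2 change was -0.96 ± 0.190 (SE; limma, adjusted p = 0.0041).

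Rps26 stood at 1057, 925 and 935 FPKM in teratoma and at 468, 570 and 543 in transplant libraries, with a log2 change of -0.88 ± 0.172 (limma, adjusted p = 0.00376). Rps15a, a small subunit protein, stood at 52.0, 41.0 and 38.6 against 20.8, 23.3 and 26.0 FPKM, and changed by -0.87 ± 0.188 (adjusted p = 0.00654). The 2 groups were apart for both. Rps13, which sits where the subunits meet, had a change of -0.80 ± 0.195 (adjusted p = 0.0124), and Rpl6 one of -0.80 ± 0.152 (adjusted p = 0.00325). Rps13 was not called without teratoma replicate 1 (adjusted p = 0.0545) or after median-ratio scaling (adjusted p = 0.105).

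Among genes with well-known roles, Rps6, the substrate of the S6 kinases downstream of mTOR, was listed at 275, 246 and 225 FPKM in teratoma and at 141, 164 and 159 in transplant libraries. It fell by 0.68 on the log2 scale (SE 0.151, limma adjusted p = 0.00788). Rps19, mutated in Diamond-Blackfan anaemia, fell by 0.58 (SE 0.149, adjusted p = 0.0167). Rpl5, which with Rpl11 and the small 5S rRNA binds Mdm2, fell by 0.56 (SE 0.158, adjusted p = 0.0243), while Rpl11 differed by -0.43 and did not pass (SE 0.167, adjusted p = 0.0812). Rpsa, also known as the laminin receptor, fell by 0.56 (SE 0.14, adjusted p = 0.014), Rps27a, made as a fusion with ubiquitin, by 0.74 (SE 0.217, adjusted p = 0.0294), and Rpl4, which lines the exit tunnel, by 0.57 (SE 0.148, adjusted p = 0.0173).

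The 3 stalk genes did not pass. Rplp1 was listed at 1778, 2288 and 2769 FPKM in teratoma and at 2286, 2345 and 2729 in transplant libraries, which overlap, with a log2 difference of 0.13 ± 0.23 (limma, adjusted p = 0.736). Rplp2 differed by -0.25 ± 0.222 (adjusted p = 0.45) and Rplp0, the stalk base, by -0.49 ± 0.178 (adjusted p = 0.0663), and for both all transplant values were below all teratoma values.

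The count in this comparison was sensitive to single libraries and to scaling, while the sign of the median was not. It was 21 without teratoma replicate 1, 27 without teratoma replicate 2, 19 without transplant replicate 1 and 24 without transplant replicate 2. Dividing each library by its median ratio over all genes left 5 genes lower and 0 higher (7.26% of all tested genes), with a median of -0.25. The lower calls were then 6.17% of the 81 genes, a smaller share than the 9.47% of all tested genes. The 5 were Rpl6, Rpl24, Rpl38, Rps15a and Rps26, so the calls for Rps6, Rps19, Rpl5, Rpsa, Rps27a and Rpl4 were lost with that scaling. Scaling to the sum without small RNA left 15 lower (11.9% of all) and 0 higher (6.06%), with a median of -0.36. Quantile normalization gave 34 lower (10.3% of all) and 0 higher (8.63%), with a median of -0.50. Markers of several other cell types moved with the groups. All 8 fibroblast markers had a mean of at least 1 FPKM in every group. Their summed level was 2891 to 4804 FPKM in teratoma and 5411 to 8351 in transplant libraries. Epithelial markers summed to 110 to 313 FPKM in teratoma and 0.677 to 2.46 in transplant libraries, where Epcam and Cldn6 were listed at 0 throughout. Endothelial markers summed to 46.8 to 57.9 FPKM in teratoma and 8.12 to 10.6 in transplant libraries, and leukocyte markers to 43.8 to 159 and 21.9 to 35.6 FPKM, with Cd52 at 0 in transplant. The part of these cell types in the result was not tested.

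Against embryo cells, transplant cells were lower in more genes. limma called 56 of 81 genes lower and 0 higher, when 27.6% of all tested genes were called lower and 14.9% higher. At an unadjusted p under 0.05 the counts were 61 and 0, and groups did not overlap for 63 lower genes, against 32.8% of all tested genes. The median change was -0.64, a level of 0.644, against -0.24 for all tested genes. The median of the 81 genes stayed below 0 with each scaling. Median-ratio scaling gave -0.31, 28 lower (19.1% of all tested genes) and 0 higher (20.1%). Quantile normalization gave -0.64, 58 lower (21.5%) and 0 higher (18.7%), and scaling to the sum without small RNA -0.46, 40 lower (23.2%) and 0 higher (17.7%). Fibroblast markers summed to 2330 to 3383 FPKM in embryo and 5411 to 8351 in transplant libraries. Erythroid markers summed to 293 to 1967 FPKM in embryo and 0.486 to 0.811 in transplant libraries. Neural markers summed to 16.3 to 19.2 FPKM in embryo and 2.44 to 4.76 in transplant libraries, and endothelial markers to 18.3 to 45.4 and 8.12 to 10.6 FPKM. Their part was not tested.

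The genes with the largest change here were Rps26, Rps13, Rpl31, Rps15a and Rps24. Rps26 was listed at 1145, 1514 and 1179 FPKM in embryo libraries, all above the transplant values given above, a log2 change of -1.27 ± 0.172 (limma, adjusted p = 0.000108). Rps13 was listed at 309, 293 and 287 FPKM in embryo and at 135, 119 and 135 in transplant libraries, a change of -1.19 ± 0.195 (adjusted p = 0.000427). All embryo values were more than 2 times all transplant values for both genes. Rpl31, Rps15a and Rps24 changed by -1.16 ± 0.231, -1.16 ± 0.188 and -1.14 ± 0.172 (adjusted p = 0.00164, 0.000392 and 0.000238). Of the stalk genes, Rplp2 fell by 0.65 (SE 0.222, adjusted p = 0.0321), while Rplp0 and Rplp1 differed by 0.04 ± 0.178 (adjusted p = 0.894) and 0.01 ± 0.23 (adjusted p = 0.971).

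Teratoma and embryo cells differed in few of these genes. limma called 1 of 81 genes higher and 0 lower in teratoma against embryo, when 15.5% of tested genes were called higher and 10.6% lower, with 1 higher and 9 lower at an unadjusted p under 0.05. The median change was -0.12, against 0.01 over all genes. The gene called was Rplp0, at 550, 629 and 690 FPKM in teratoma and 430, 360 and 513 in embryo libraries. Its groups were apart, with a log2 change of 0.53 ± 0.178 (limma, adjusted p = 0.0468). The call was lost without teratoma replicate 2 or 3, any 1 transplant library, embryo replicate 1 or 2, or adult replicate 2 or 3. Median-ratio scaling gave 1 higher (15.3% of all tested genes) and 2 lower (10.5%), quantile normalization 0 (14%) and 7 (14.2%), and the sum without small RNA 0 (15.1%) and 5 (11.8%). Lower calls as deposited numbered 2 without teratoma replicate 1 or without embryo replicate 1, and 1 without embryo replicate 2. Epithelial markers summed to 110 to 313 FPKM in teratoma and 5.24 to 22.8 in embryo libraries, erythroid markers to 10.1 to 42.0 and 293 to 1967 FPKM, and leukocyte markers to 43.8 to 159 and 4.26 to 11.3 FPKM. Their part was not tested.

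For adult against embryo the direction of the set depended on the scaling. With values as deposited limma called 27 of 81 genes lower and 0 higher in adult cells, when 36.9% of all tested genes were lower and 15.8% higher, so the share of these genes was near that of the table. The counts at an unadjusted p under 0.05 were 32 lower and 1 higher, and groups did not overlap for 34 lower genes, against 40.1% of all. The median change was -0.30, less than the -0.42 over all tested genes. After median-ratio scaling, which brings the all-gene median to -0.04, 19 genes were higher (25.8% of all) and 4 lower (26%), with a median of 0.24. Quantile normalization gave 1 higher (23.9%) and 56 lower (24.6%), with a median of -0.62. Scaling to the sum without small RNA gave 2 higher (19.3%) and 15 lower (33.5%), with a median of -0.12. The count of lower genes as deposited was 16 without adult replicate 1 and 16 without adult replicate 3. Erythroid markers summed to 293 to 1967 FPKM in embryo and 3.69 to 24.7 in adult libraries, where Hbb-y and Hba-x were listed at 0, fibroblast markers to 2330 to 3383 and 1169 to 1719 FPKM, and neural markers to 16.3 to 19.2 and 0.801 to 3.98 FPKM. Their part was not tested.

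**Figure D3:**
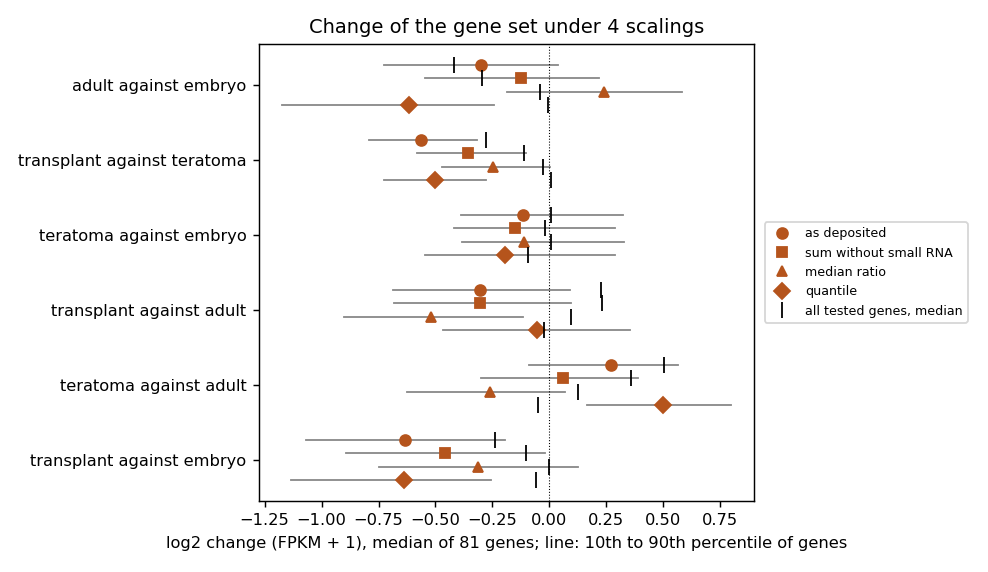
Coloured marks are the median log2 change of the 81 genes in each comparison under 4 scalings, grey lines run from the 10th to the 90th percentile of the genes, and black ticks are the median over all tested genes. Transplant against teratoma and transplant against embryo lie left of 0 under each scaling, while adult against embryo and teratoma against adult change side with median-ratio scaling.

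The genes that fell most in adult against embryo kept their direction under each scaling between libraries. Rpl41, the smallest ribosomal protein, was listed at 923, 797 and 1137 FPKM in embryo and at 347.1, 441.4 and 276.6 in adult libraries. The groups were far apart, a log2 change of -1.43 ± 0.192 (limma, adjusted p = 6.15e-05). Rpl22, an RNA-binding protein of the large subunit, was listed at 70.6, 93.4 and 84.2 against 38.2, 48.6 and 37.3 FPKM, a change of -0.98 ± 0.153 (adjusted p = 0.000195). Rpl27 changed by -0.90 ± 0.14 (adjusted p = 0.000205). Rps27l, the paralog of Rps27 known as a p53 target, changed by -0.83 ± 0.289 (adjusted p = 0.029), and was not called under any of the 3 scalings between libraries, where its adjusted p was 0.421 (median ratio), 0.079 (quantile) and 0.08 (sum without small RNA). It was also lost without embryo replicate 1 or 2 or adult replicate 1 or 3 (adjusted p = 0.0539 to 0.106). Of the genes of known role, Rpl11 and Rpsa fell by 0.78 and 0.58 (SE 0.167 and 0.14, adjusted p = 0.00176 and 0.00377), and were not called after median-ratio scaling (-0.24 and -0.04, adjusted p = 0.209 and 0.809), while Rps6 differed by -0.05 ± 0.151 (adjusted p = 0.801) and Rpl4 by -0.08 ± 0.148 (adjusted p = 0.681).

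Adult cells also served as the partner of the 2 pluripotent-derived groups. These comparisons share the adult libraries with each other and with the one before, so their values are given side by side only. For transplant against adult, limma called 25 of 81 genes lower and 2 higher, when 16.9% of all tested genes were lower and 27.3% higher. The median was -0.31, against 0.23 for all tested genes. Median-ratio scaling gave 47 lower (22.3% of all tested genes) and 1 higher (24%), with a median of -0.52. Quantile normalization gave 5 lower (21.4%) and 3 higher (19.8%), with a median of -0.06, and the sum without small RNA 29 lower (17.7%) and 2 higher (28.4%), with a median of -0.30. The lower count as deposited was 15 without transplant replicate 1, 12 without adult replicate 2 and 14 without adult replicate 2 and embryo replicate 2, and the higher count was 1 without transplant replicate 2 or 3 or adult replicate 1 or 3. Non-overlapping groups with lower transplant values were found for 39 genes, against 22.6% of all tested genes. Fibroblast markers, at 5411 to 8351 FPKM in transplant and 1169 to 1719 in adult libraries, moved with these groups, and their part was not tested.

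Rps3, which also has roles in DNA repair, was listed at 165, 260 and 228 FPKM in adult and at 125, 114 and 123 in transplant libraries, a log2 change of -0.82 ± 0.174 (limma, adjusted p = 0.00243). Rps6 was listed at 252, 296 and 245 FPKM in adult libraries, again all above transplant, a change of -0.77 ± 0.151 (adjusted p = 0.00157). Both groups were apart for these genes. Rpl7 and Rpl23 changed by -0.85 ± 0.215 and -0.83 ± 0.198 (adjusted p = 0.00697 and 0.00513), and Rpl7l1, the paralog of Rpl7 with a part in ribosome assembly, by -1.06 ± 0.167 (adjusted p = 0.000384). After quantile normalization Rpl7 and Rpl23 were not called (adjusted p = 0.122 and 0.0653). The 2 genes higher in transplant were Rpl41 (0.60 ± 0.192, adjusted p = 0.0244) and Rps4y2, and Rpl41 was not called after median-ratio scaling (0.38, adjusted p = 0.112) or without transplant replicate 2 or 3 or adult replicate 1 or 3 (adjusted p = 0.0535 to 0.108).

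For teratoma against adult, limma called 9 of 81 genes higher and 1 lower, when 36.4% of all tested genes were higher and 8.94% lower. The median was 0.27, against 0.50 for all tested genes. Median-ratio scaling reversed this to 2 higher (23% of all tested genes) and 23 lower (20.4%), with a median of -0.26. Quantile normalization gave 41 higher (18%) and 1 lower (19%), with a median of 0.50, and scaling to the sum without small RNA 6 higher (30.3%) and 4 lower (12.9%), with a median of 0.06. The higher count as deposited was 18 without adult replicate 2, 16 without embryo replicate 2 and 23 without both, and the lower count was 2 without adult replicate 1. Epithelial markers summed to 110 to 313 FPKM in teratoma and 1.99 to 4.34 in adult libraries, fibroblast markers to 2891 to 4804 and 1169 to 1719 FPKM, leukocyte markers to 43.8 to 159 and 7.18 to 15.96 FPKM, and endothelial markers to 46.8 to 57.9 and 17.0 to 27.9 FPKM. Their part was not tested. Rpl41 was higher by 1.26 ± 0.192 (adjusted p = 0.000303), Rpl32 by 0.80 ± 0.188 (adjusted p = 0.00444), Rpl27 by 0.74 ± 0.14 (adjusted p = 0.00123) and Rps20 by 0.61 ± 0.153 (adjusted p = 0.00695). After median-ratio scaling Rpl32, Rpl27 and Rps20 were not called, with changes of 0.27, 0.21 and 0.07. The gene called lower was Rpl7l1 (-0.78 ± 0.167, adjusted p = 0.00279).

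To see which genes departed from the rest, each library was divided by the level of its own ribosomal protein genes. The model was then fitted again over all genes. This division puts the median change of these genes near 0 by construction. A smaller share of calls among them than over all genes is therefore built in and is no result about the set. In transplant against teratoma 0 of 81 genes were then called, when 18.1% of all tested genes were, and 4 had an unadjusted p under 0.05. In adult against embryo 14 genes were called (49.7% of all tested genes), 6 higher (20.5%) and 8 lower (29.2%) than the set. In transplant against adult 15 were called (48.6%), in teratoma against adult 10 (40.5%), in transplant against embryo 12 (39.2%) and in teratoma against embryo 1 (23% of all). The transplant against adult count was 9 without transplant replicate 1 or 2 or adult replicate 1 or 2, and the transplant against embryo count was 6 without transplant replicate 2 or embryo replicate 2 and 7 without transplant replicate 3. The teratoma against adult count was 6 without teratoma replicate 3 or adult replicate 3, and the teratoma against embryo count ran from 0 (without teratoma replicate 2 or 3 or embryo replicate 2) to 4 (without teratoma replicate 1).

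Rpl41 was below the set in adult libraries. Divided by the level of the set, it stood at 393, 394 and 308 in adult libraries, 806, 677 and 881 in embryo, 692, 709 and 830 in teratoma and 704, 673 and 680 in transplant libraries. The 3 adult values were below all 9 others. The log2 change relative to the set was -1.11 ± 0.162 against embryo (limma, adjusted p = 0.000126), and 0.92 ± 0.162 for transplant and 1.03 ± 0.162 for teratoma against adult (adjusted p = 0.000644 and 0.000426).

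Rpl22 and Rpl27 were also below the set in adult libraries. Rpl22 stood at 43.3, 43.4 and 41.5 after division in adult libraries, and between 53.0 and 79.2 in the other 9 libraries, and its change against embryo relative to the set was -0.67 ± 0.134 (adjusted p = 0.00129). Rpl27 stood at 151, 144 and 152 in adult libraries and between 182 and 241 in the others, a change of -0.58 ± 0.123 (adjusted p = 0.00199). Adult libraries did not overlap any other group for either gene.

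Rpl7l1 was above the set in adult libraries, at 41.3, 33.3 and 57.6 after division, when the other 9 libraries lay between 19.0 and 29.3. Its change relative to the set was 0.68 ± 0.19 against embryo (adjusted p = 0.00997). Rplp0 was below the set in embryo libraries, at 375, 305 and 398, when all other libraries lay between 461 and 664. Relative to the set it was higher than in embryo by 0.63 ± 0.178 in adult (adjusted p = 0.011), by 0.62 ± 0.178 in teratoma (adjusted p = 0.0239) and by 0.68 ± 0.178 in transplant libraries (adjusted p = 0.00916). Embryo libraries are in all 3 of these comparisons. The call in teratoma was lost without teratoma replicate 2 or 3 or embryo replicate 2, and that in adult without adult replicate 3 (adjusted p = 0.0503 to 0.096).

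In transplant against embryo, Rps26 and Rps13 were below the set by 0.63 and 0.55 (-0.63 ± 0.172 and -0.55 ± 0.158, adjusted p = 0.012 and 0.0157). Rps14 and Rpl37a were above it by 0.59 ± 0.149 and 0.63 ± 0.219 (adjusted p = 0.00764 and 0.0377), and Rpl37a was not called without teratoma replicate 2, any 1 transplant library, or embryo replicate 1 or 2 (adjusted p = 0.0501 to 0.142). Rps13 was not called relative to the set without transplant replicate 2 or embryo replicate 1 (adjusted p = 0.0598 and 0.0574). Relative to adult libraries, Rps25 in teratoma was 0.52 below the set (-0.52 ± 0.154, adjusted p = 0.0178), Rpl32 was above it in teratoma and transplant libraries (0.58 ± 0.161 and 0.56 ± 0.161, adjusted p = 0.0129 and 0.0118), and Rplp1 was above it in transplant libraries (0.70 ± 0.248, adjusted p = 0.034). These calls were lost for Rps25 without teratoma replicate 2 or adult replicate 3, for Rpl32 in teratoma without teratoma replicate 1, and for Rplp1 without any 1 transplant library or adult replicate 1 or 2 (adjusted p = 0.0502 to 0.131).

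**Figure D4:**
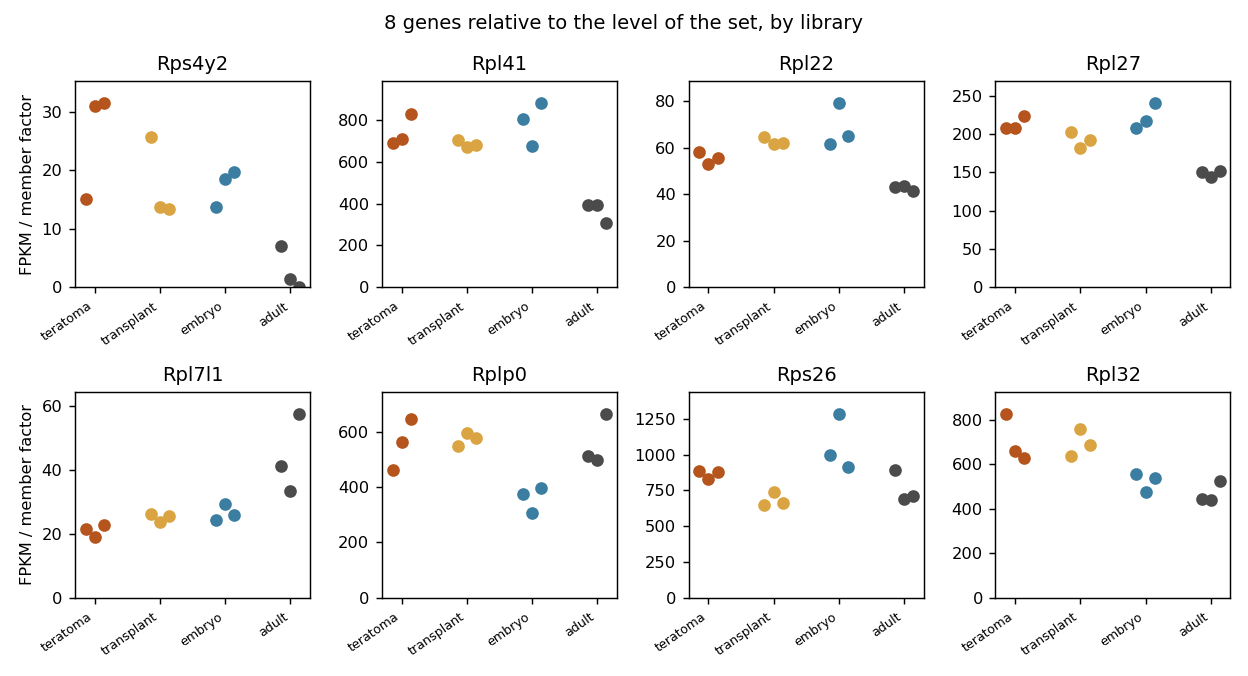
Each panel plots one gene's FPKM divided by the level of the ribosomal protein genes in that library, by group, with 1 point per library. Adult points lie apart from all others for Rpl41, Rpl22, Rpl27, Rps4y2 and Rpl7l1, and embryo points for Rplp0.

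Paralogs, second gene copies that encode alternative forms of a subunit, were compared with their partners. Rps4y2, a symbol that RefSeq lists as a synonym of Rps4l, is annotated as a transcribed processed pseudogene on chromosome 6 and is a relative of the X-linked Rps4x. It was listed at 15.7, 21.8 and 25.4 FPKM in embryo, 17.9, 34.8 and 33.5 in teratoma, 18.6, 10.5 and 10.96 in transplant and 6.197, 1.481 and 0 in adult libraries. All adult values were below all others, with a log2 change of -3.05 ± 0.554 against embryo (limma, adjusted p = 0.000603), and 2.41 ± 0.554 for transplant and 3.45 ± 0.554 for teratoma against adult (adjusted p = 0.00408 and 0.000416). Fitted changes of a gene with a library at 0 depend on the pseudocount of 1. Its level as a percent of Rps4x was 1.296, 0.2496 and 0 in adult libraries and 2.902 to 7.004 in the other 9, while Rps4x itself did not differ between adult and embryo as deposited beyond its spread (526 ± 60.2 and 488 ± 47.8 FPKM, SD, n = 3 each).

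Rpl22l1 reached 54.9% ± 6.403 (SD, n = 3) of the FPKM of Rpl22 in embryo, 92.1% ± 20.0 in teratoma, 71.0% ± 3.37 in transplant and 99.5% ± 35.2 in adult libraries. The adult libraries ranged from 64.8% to 135% and all lay above the embryo libraries, of which the highest was 59.1%. Rpl7l1 was 4.13% ± 0.329 of Rpl7 in embryo, 4.16% ± 1.07 in teratoma, 5.48% ± 0.540 in transplant and 6.77% ± 2.71 in adult libraries. Rps27l was 3.03% ± 0.313 of Rps27 in adult libraries and 3.77% ± 1.89 to 5.57% ± 3.29 in the other groups, ranges that overlap. Rpl36al, which the symbol rule leaves out, was 51.2% ± 5.60 of Rpl36a in teratoma, 41.9% ± 8.93 in embryo, 62.6% ± 11.8 in transplant and 66.0% ± 12.7 in adult libraries. Rpl3l, the form of Rpl3 made in mature striated muscle, was listed at 0 in 10 libraries and at 0.395 FPKM at most, against 364 FPKM for Rpl3 over the 12 libraries. Rpl10l, the testis form of Rpl10, was at 0 in 11 libraries with 0.162 FPKM in the other, and Rpl39l at 0 in 7 with a highest value of 4.46 FPKM, in embryo replicate 1.

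For 3 genes, values listed at 0 stood beside a near-identical copy with a high level. Rpl26 and Rpl30 were each listed at 0 in 6 libraries, Rpl34 at 0 in transplant replicate 3, and each has a processed pseudogene copy in the table. How reads were divided between gene and copy was not tested. Stretches of 60 coding bases show how alike they are. They were chosen around a difference between gene and copy, whose base is in capitals, and come from the GENCODE annotation of mm10.
Rpl26: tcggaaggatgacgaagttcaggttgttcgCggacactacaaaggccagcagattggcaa
Gm15772: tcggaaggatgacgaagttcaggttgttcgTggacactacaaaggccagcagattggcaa
Rpl30: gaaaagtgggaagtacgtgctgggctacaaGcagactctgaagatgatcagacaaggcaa
Gm12191: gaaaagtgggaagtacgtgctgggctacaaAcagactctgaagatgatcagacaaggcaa
Rpl34: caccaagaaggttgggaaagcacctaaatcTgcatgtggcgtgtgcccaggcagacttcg
Rpl34-ps1: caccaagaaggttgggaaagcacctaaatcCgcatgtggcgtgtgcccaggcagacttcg
Over the whole coding sequence, gene and copy differed at 2 of 435 bases for Rpl26, 1 of 345 for Rpl30 and 2 of 351 for Rpl34.

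Gm15772 was listed at 756 to 2169 FPKM, when Rpl26 did not exceed 206 FPKM, and Gm12191 at 144.6 to 371.6 FPKM, when Rpl30 did not exceed 46.7 FPKM. Rpl34 was listed at 639, 474 and 283 FPKM in teratoma and at 433, 143 and 0 in transplant libraries, while Rpl34-ps1 was at 643, 600 and 608 and at 282, 679 and 750. The copy was highest in the library where the gene was listed at 0. The sum of Rpl34 and Rpl34-ps1 was 1116 ± 94.8 FPKM in embryo, 1083 ± 196 in teratoma, 762 ± 54.4 in transplant and 733 ± 106 in adult libraries (SD, n = 3), and the log2 change of this sum was -0.55 ± 0.182 for transplant and -0.61 ± 0.182 for adult against embryo (limma, adjusted p = 0.0286 and 0.013). For transplant against embryo, the sum with Gm15772 changed by -0.88 ± 0.2 (adjusted p = 0.00374) and that with Gm12191 by -0.59 ± 0.221 (adjusted p = 0.0477). The 3 genes alone were called in none of the 6 comparisons. Copies of this kind are common, since 76 of the 84 genes have at least 1 copy in the annotation that matches at 95% identity or more over at least 80% of the coding sequence, 566 in all and 57 for Rpl21, of which 14 are in the table. All 84 values can therefore hold reads of copies.

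**Figure D5:**
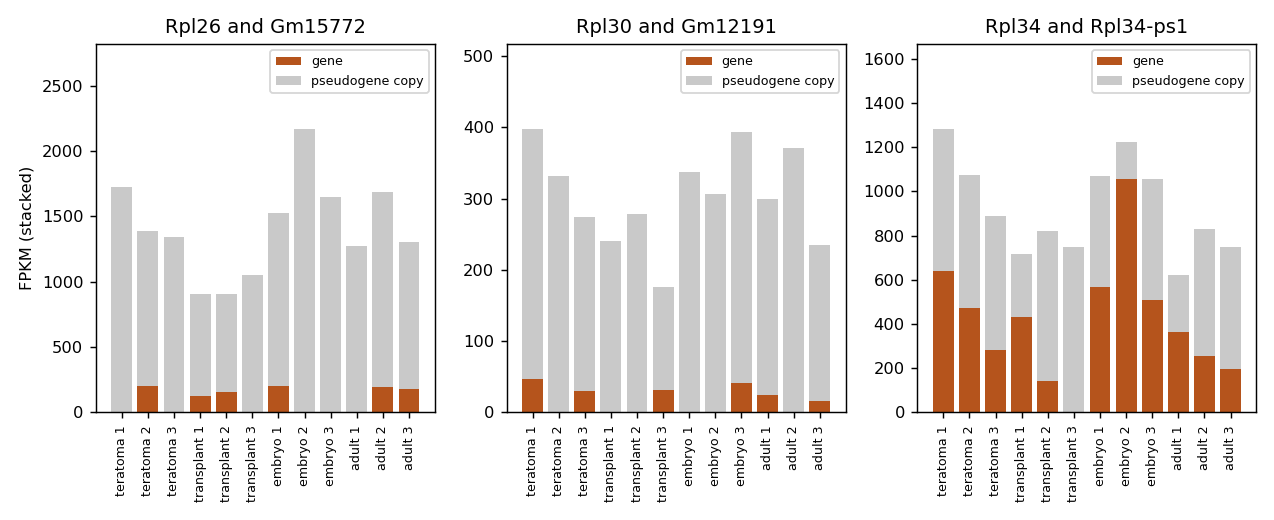
Bars stack the FPKM of the gene and of its pseudogene copy in each of the 12 libraries. Most of the summed level of Rpl26 and Rpl30 is listed under the copy, and the split for Rpl34 differs from library to library.

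The genes lie on 19 chromosomes, 4 of them on the X chromosome (Rpl10, Rpl36a, Rpl39 and Rps4x), in GENCODE M21 on mm10. Introns and other parts of 30 genes hold 58 small nucleolar RNAs, which guide the modification of ribosomal RNA. Genes with such an RNA had a median change of -0.561 in transplant against teratoma and 18 of 30 were called lower, and genes without had -0.595 and 27 of 51. Genes with the pyrimidine run over the start base had a median of -0.63 (13 of 20 lower), and tested genes with a window and no run -0.56 (22 of 40 lower). In transplant against embryo the medians were -0.77 (15 of 20 lower) with the run and -0.62 (29 of 40 lower) without. The difference between these subsets was not tested.

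Among ribosomal proteins that the symbol rule leaves out, Fau, the ubiquitin-like fusion of a small subunit protein, stood at 741 ± 38.0 FPKM in teratoma and 573 ± 62.2 in transplant libraries (SD, n = 3), a log2 difference of -0.37 that did not pass (limma, adjusted p = 0.096). Gnb2l1, which encodes Rack1, differed by -0.43 (adjusted p = 0.0515) and Rpl36al by -0.40 (adjusted p = 0.157). Over the 12 libraries genes whose profile was most like the mean of the ribosomal protein genes included Actg1 (r = 0.955), Cfl1 (0.942), Abcc9 (0.938), Yeats2 (0.934), Gjc1 (0.932), Anp32b (0.930) and Higd1a (0.928), of 6535 candidates with a mean of at least 5 FPKM. These are descriptions over libraries that share their groups.

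Calls in the other lists of the pathway are read against the share of all tested genes called under the same scaling. Other mRNAs known to carry the TOP element, 20 in all, fell in 14 cases and rose in 0 in transplant against teratoma (18.5% and 4.18% of all), with a median of -0.72. In transplant against embryo 15 fell and 0 rose (27.6% and 14.9% of all, median -1.01), and in transplant against adult 11 fell and 1 rose (16.9% and 27.3%, median -0.48). In adult against embryo 11 fell and 2 rose (36.9% and 15.8% of all, median -0.65). Median-ratio scaling gave 4 lower and 5 higher there (26% and 25.8% of all), with a median of -0.11. In teratoma against embryo 5 fell and 0 rose (10.6% and 15.5%, median -0.29), and in teratoma against adult 6 rose and 1 fell (36.4% and 8.94%, median 0.15). Hnrnpa1, a splicing factor, was listed at 175, 130 and 142 FPKM in teratoma, 43.3, 16.1 and 54.1 in transplant and 290, 301 and 283 in embryo libraries. Transplant values were below all of these, with a log2 change of -2.10 against teratoma (adjusted p = 0.00101) and -3.08 against embryo (adjusted p = 1.67e-05). Median-ratio scaling kept the median of the list below 0 in transplant against teratoma (-0.40) and transplant against embryo (-0.69). In these, 9 and 14 genes were then lower (9.47% and 19.1% of all tested genes). The median of teratoma against adult turned to -0.39. Scaling to the sum without small RNA gave -0.07 there.

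Genes of ribosome biogenesis, the nucleolar factors that make ribosomal RNA and assemble subunits, had more higher than lower calls in adult cells. Of 75 tested, 38 were higher and 5 lower in adult against embryo (15.8% and 36.9% of all tested genes). The median was 0.64 when the ribosomal protein genes had -0.30. Median-ratio scaling gave 55 higher and 0 lower (25.8% and 26% of all). Rrp9, a protein of the U3 particle, was listed at 56.2, 45.6 and 53.8 FPKM in adult and at 8.94, 8.26 and 7.56 in embryo libraries, a log2 change of 2.51 (limma, adjusted p = 5.2e-06). The adult libraries were apart from all others. In transplant against adult 62 were lower and 1 higher (16.9% and 27.3% of all, median -1.59), and in teratoma against adult 46 were lower and 0 higher (8.94% and 36.4%, median -0.86). In transplant against teratoma 32 were lower and 1 higher (18.5% and 4.18% of all, median -0.69). The lower count was 14 after median-ratio scaling (9.47% of all) and 15 after quantile normalization (10.3%). It was 19 with the sum without small RNA (11.9%). In transplant against embryo 35 were lower and 0 higher (27.6% and 14.9%, median -0.65), and 24 and 2 after median-ratio scaling (19.1% and 20.1%). In teratoma against embryo 8 were lower and 1 higher (10.6% and 15.5%, median -0.10). The medians of this list kept their sign under the other 3 scalings. Npm1, a nucleolar chaperone that is also on the TOP list, was listed at 358, 462 and 400 FPKM in embryo, 276, 176 and 196 in teratoma, 69.5, 91.4 and 99.0 in transplant and 299.5, 235.6 and 229.3 in adult libraries.

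Of the proteins of the mitochondrial ribosome, which translates the mitochondrial genome, 76 genes were tested. In adult against embryo 53 were lower and 1 higher (36.9% and 15.8% of all tested genes), with a median of -1.38. Median-ratio scaling left 35 lower and 3 higher (26% and 25.8% of all). Mrpl34, a protein of its large subunit, stood at 0.598 ± 0.661 FPKM in adult and 23.4 ± 10.01 in embryo libraries (SD, n = 3), without overlap, and fell by 3.92 on the log2 scale (limma, adjusted p = 6.63e-06). In transplant against adult 24 were higher and 3 lower (27.3% and 16.9% of all, median 0.47), and 22 and 9 after median-ratio scaling (24% and 22.3%). In teratoma against adult 33 were higher and 1 lower (36.4% and 8.94%, median 0.66), and 21 and 5 after median-ratio scaling (23% and 20.4%). In transplant against teratoma 8 were lower and 0 higher (18.5% and 4.18% of all), with a median of -0.25 that became 0.00 after median-ratio scaling and 0.04 after quantile normalization. In transplant against embryo 33 were lower and 0 higher (27.6% and 14.9%, median -0.93). After median-ratio scaling 17 were lower, a share near the 19.1% of all tested genes, and 3 higher (20.1% of all). In teratoma against embryo 14 were lower and 0 higher (10.6% and 15.5%, median -0.56).

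Among 27 tested regulators of ribosome production, Myc, a transcription factor that activates ribosomal genes, was listed at 13.7, 13.2 and 17.9 FPKM in embryo, 99.9, 92.2 and 85.6 in teratoma, 67.4, 79.9 and 93.1 in transplant and 183, 227 and 211 in adult libraries. Embryo libraries were lowest and adult libraries highest without overlap, and the log2 change was 3.71 for adult against embryo (limma, adjusted p = 2.24e-08). Eif4e, the cap-binding factor, was listed at 14.8, 22.7 and 21.3 FPKM in transplant and at 56.6, 38.9 and 36.2 in teratoma libraries, a change of -1.12 (adjusted p = 0.0071). Over the list 9 genes were higher and 9 lower in adult against embryo (15.8% and 36.9% of all tested genes). After median-ratio scaling the counts were 12 and 2 (25.8% and 26% of all). In transplant against teratoma 0 were higher and 5 lower (4.18% and 18.5%), and 1 and 1 after that scaling (7.26% and 9.47%). In teratoma against embryo the counts were 5 and 1 (15.5% and 10.6%), and 6 and 1 after scaling (15.3% and 10.5%). In transplant against adult they were 7 and 8 (27.3% and 16.9%), and 4 and 9 after scaling (24% and 22.3%). In teratoma against adult 6 were higher and 5 lower (36.4% and 8.94%), and 2 and 9 after scaling (23% and 20.4%). In transplant against embryo the counts were 5 and 8 (14.9% and 27.6%), and 7 and 5 after scaling (20.1% and 19.1%). Of 8 tested hosts of small nucleolar RNAs, Gas5, itself a TOP transcript, was listed at 286, 232 and 163 FPKM in adult libraries and at 25.5 to 60.6 in the other 9, a change of 2.15 against embryo (adjusted p = 5.76e-05).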

How the data were processed

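FPKM values for the 12 libraries, in a single table by gene symbol, are as the authors deposited them. Collagenase II and dispase released the cells, RNeasy columns with DNase I gave the RNA, and libraries used the Pico version of the SMARTer Stranded Total RNA-seq kit, per the labels' protocols. Partek, Cufflinks 2.2.1.0, TopHat 0.7, CASAVA 1.8.2 and the build mm10 are listed, versions as written, in the submitters' processing notes. The sources used here do not give annotation, strand use or read counts, so depth is unknown and no interval or floor is given. A 0 can be a failed estimate.

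The table has 23746 rows, and values of 240 repeated symbols were summed, none of them a ribosomal protein gene. The 12699 genes that reached 1 FPKM in 3 or more libraries were fitted in limma 3.58.1 (R 4.3.3) on log2(FPKM + 1). One linear model held all 12 libraries and 4 groups with an intensity trend, leaving 8 residual degrees of freedom. Benjamini-Hochberg adjustment ran over all 12699 genes in each of 6 comparisons, with calls at adjusted p under 0.05, and a positive change means higher in the first group named. Values were used as deposited, and again after dividing by the median ratio of all genes, after quantile normalization, after scaling to the sum without small, ribosomal and mitochondrial RNA, and after dividing by the median ratio of the ribosomal protein genes. The steps were tested on simulated data. Also tried were no filter, a pseudocount of 0.1, a mean of at least 5 FPKM, only the 2 groups compared, a replicate block, isolated zeros as missing, and leaving out each library. Chosen after seeing the data were the sums with pseudogene copies and leaving out embryo replicate 2 and adult replicate 2 together.

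Named genes were paralogs, subunits of known role, the 5 members with the largest change in each direction among called members with groups apart and 5 FPKM or more as the higher mean, the 5 farthest from the set under the same terms, the 3 highest and lowest members, members listed at 0 in single libraries, and up to 2 called genes a comparison of each other list. The members and lists were chosen with earlier results of these data known. Positions and copies came from GENCODE M21 (copies by BLAST 2.17.0, at least 95% identity over 80% of the coding bases), and start windows from RefSeq. Some genes of the other lists are not reported here.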

Additional observations from a re-analysis of the deposited data

How the results depend on the processing

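Counts are of the 81 tested genes, higher and lower as deposited: 0 and 27 for adult against embryo, 0 and 45 for transplant against teratoma, 1 and 0 for teratoma against embryo, 2 and 25 for transplant against adult, 9 and 1 for teratoma against adult and 0 and 56 for transplant against embryo. Median-ratio scaling changed these to 19 and 4, 0 and 5, 1 and 2, 1 and 47, 2 and 23, and 0 and 28. Quantile normalization gave 1 and 56, 0 and 34, 0 and 7, 3 and 5, 41 and 1, and 0 and 58. Scaling to the sum without small RNA gave 2 and 15, 0 and 15, 0 and 5, 2 and 29, 6 and 4, and 0 and 40. Leaving out embryo replicate 2 and adult replicate 2 together gave 0 and 32, 0 and 50, 0 and 1, 2 and 14, 23 and 1, and 0 and 53. In these cases the cause was not tested. No filter on low values, and fitting only the 2 groups compared, each took the higher call for teratoma against embryo to 0, and a mean of at least 5 FPKM gave it 1 lower call. Relative to the set, teratoma against embryo had 1 call, 2 with a mean of at least 5 FPKM, 3 with a pseudocount of 0.1 and 0 with only the 2 groups compared, where adult against embryo had 8 in place of 14.

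Leaving out each library in turn gave 0 higher and 16 to 30 lower for adult against embryo, 0 higher and 19 to 51 lower for transplant against teratoma, 0 to 1 higher and 0 to 2 lower for teratoma against embryo, 1 to 2 higher and 12 to 27 lower for transplant against adult, 6 to 18 higher and 1 to 2 lower for teratoma against adult, and 0 higher and 44 to 56 lower for transplant against embryo. Relative to the set the ranges were 10 to 15, 0, 0 to 4, 9 to 20, 6 to 10 and 6 to 17 in the same order. None of the changes of the genes named for their size or distance from the set reversed under an alternative. Among these, 38 of the 600 values with a library left out missed the threshold.

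A replicate block gave 0 and 22, 0 and 33, 1 and 0, 2 and 21, 10 and 1, and 0 and 55 in that order. Whether libraries with the same number share a source is not stated. The 18 same-numbered pairs had correlations of deviations from -0.0951 to 0.0956, and 3 of 12 libraries correlated best with their own number. With 3 libraries in a group, these values cannot settle whether the libraries are paired.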
